A study of Homo sapiens with 6 samples.

Results

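The transcriptome of MCF10A cells that had received a control siRNA (siCT) was described in the 3 siCT libraries of a series of 6, chosen by their sample titles. MCF10A is an immortalised, non-tumorigenic line of human breast epithelial cells. The study compared cells depleted of PDCD4, an RNA-binding tumour suppressor, with siCT cells, and the depleted libraries were not used here. Both groups were MCF10A labelled WT. The control siRNA was given at 10 nM by reverse transfection, the medium was renewed at 6 h, and the cells were taken at 48 h. The paper's methods also describe fresh growth medium a few hours before MCF10A cells were collected for experiments. The growth medium was DMEM/F12 with 5% horse serum, 20 ng/ml epidermal growth factor (EGF), 10 µg/ml insulin, 500 ng/ml hydrocortisone and 10 ng/ml cholera toxin, an agent that raises cyclic AMP. All 3 libraries carry the same treatment label as the depleted ones, a knockdown by siRNA, so that the title alone makes them controls. Total RNA was sequenced as paired reads of 75 bases. The labels do not say whether the libraries came from separate cultures, and the spread between them may therefore be technical. All results are those of 1 cell line in 1 medium, without an untransfected sample, so that effects of the transfection itself cannot be told apart from the baseline.

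The mammary epithelium is built of an inner luminal layer and an outer basal layer that touches the basement membrane. Luminal cells classically carry simple-epithelial keratins and, in part, the receptors for oestrogen and progesterone, whereas basal cells carry stratified-epithelial keratins, the transcription factor p63 and the integrins of hemidesmosomes, and may contract. Keratins form filaments only as pairs of a type I and a type II chain, and the pair in use marks the kind of epithelium.

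The 5 genes used to check the cell type were all present in every library. Levels are in TPM, a unit of relative transcript number that is corrected for transcript length, summed over all transcripts of a gene. They are given for replicates 1, 2 and 3 in this order, with the mean ± SD (n = 3). KRT5 (chr12:52514575-52520530, GRCh38), the basal type II keratin, was at 1135, 1206 and 938 TPM (1093 ± 139). Its partner KRT14 (chr17:41582279-41586895) was at 99.2, 108 and 65 TPM (90.7 ± 22.6). Both keratins were lowest in replicate 3. TP63 (chr3:189631389-189897276), the gene of p63, was at 12.9, 14.2 and 12.4 TPM (13.2 ± 0.942). VIM (chr10:17228241-17237593), the mesenchymal intermediate filament vimentin, was at 291, 318 and 305 TPM (305 ± 13.9), and its 3 libraries lay close together. CDH1 (chr16:68737292-68835537), which encodes E-cadherin of adherens junctions, was at 25.2, 26.3 and 21.6 TPM (24.4 ± 2.43). The cells thus carried basal keratins, p63 and E-cadherin RNA together with vimentin RNA, and no marker of the 5 was missing.

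Depth and composition differed between the libraries. The estimated counts came to 21828931, 18540488 and 13410441 in replicates 1, 2 and 3. Protein-coding genes held 59.5%, 58.8% and 51.1% of the TPM, and processed pseudogenes 35.3%, 36.1% and 44%. A single pseudogene transcript of 177 bases (ENSG00000249072, chr4:78008512-78008688, minus strand) held 29.8% to 34.5% of all TPM but only 1.21% to 1.4% of the counts. All mRNA levels below are therefore lower than they would be on a scale of mRNA alone. Rescaling each library to an equal sum over nuclear protein-coding genes multiplied TPM by 1.72, 1.74 and 2.02. It raised replicate 3 the most and lowered the median coefficient of variation between libraries from 0.103 to 0.0875. Orders of the replicates are given throughout in TPM without this rescaling. A gene lowest in replicate 3 in TPM, such as ITGB1 or PKM below, need not be so after it. Across protein-coding genes, log2(TPM + 1) of the library pairs correlated with Pearson's r between 0.993 and 0.996, a description over genes of 1 line, which are not independent.

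Of 19692 protein-coding genes, 10641 (54.0%) were at 1 TPM or more in all 3 libraries, and genes of the lists that reached this level are said below to have passed. The share of 54.0% is to be set beside the count of every list below, also where it is not repeated. A level of 10 TPM was reached in every library by 6030 genes (30.6%) and one of 100 TPM by 675 (3.43%), while 84 reached 1000 TPM. No read at all was assigned to 3967 genes. The median over all protein-coding genes was 2.47 TPM. A small number of genes made up much of the RNA, since the 10 highest held 9.23% of the protein-coding TPM, the 100 highest 36.9% and the 1000 highest 69.4%. Genes for ribosomal proteins made up 12 of the 25 highest and 59 of the 100 highest. Mitochondrially encoded genes made up 6 of the 100 highest, keratins 3 and S100 genes 2.

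The highest gene was EEF1A1, a translation elongation factor, at 8747, 8324 and 6968 TPM (8013 ± 929). MT2A, a metallothionein that binds zinc and is induced by glucocorticoids and metals, came next at 6258, 7463 and 6156 TPM (6626 ± 727). TMSB10, which binds actin monomers, was at 6545, 5769 and 4769 TPM. EEF1A1 and TMSB10 were lowest in replicate 3, whereas MT2A was highest in replicate 2. The calcium-binding protein gene S100A6 was at 6095, 5439.6 and 5536 TPM, and its relative S100A2, known from basal and squamous epithelium, was at 5569, 4579 and 3094 TPM, with replicate 1 well above replicate 3. Among ribosomal protein genes RPS27 had a mean of 4871 ± 602 TPM and RPL41 of 4690.3 ± 855 TPM. RPS18, RPL37A, RPL4, RPS12, RPS24, RPL39, RPL26, RPS23 and RPL17 followed, between 2369.8 and 3857 TPM in the mean. For RPL4 only 32.4% of the level was on transcripts annotated as protein-coding. Ribosomal protein genes have many near-identical pseudogene copies, so that their levels are uncertain to the extent that reads are shared out between them.

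The remainder of the 25 highest were genes used in nearly every cell. MT-CO3, a cytochrome c oxidase subunit of the mitochondrial genome, was at 4165, 4112 and 4507 TPM and, in contrast to EEF1A1, highest in replicate 3. GAPDH of glycolysis was at 3445, 3577 and 2890.5 TPM. The cyclophilin gene PPIA had a mean of 3187 ± 584 TPM, the nucleolar chaperone NPM1 2722 ± 355 TPM, the actin gene ACTB 2653 ± 179 TPM, TPT1 2346 ± 272 TPM and the heat-shock chaperone HSPA8 2284 ± 279 TPM. MYH10, a non-muscle myosin heavy chain, was listed at 6034, 3763 and 2120.1 TPM, but 99.6% of this lay on 1 transcript annotated as a retained intron. Its protein-coding transcripts came to 11.7, 13.8 and 12.2 TPM. LIG1, a DNA ligase, was listed in the same way and is named after its values were seen, with 2665, 1541 and 1319.9 TPM in all and 1.38, 1.64 and 0.954 TPM over its protein-coding transcripts. The rank of MYH10 and LIG1 does not reflect their protein-coding transcripts. Of genes named below with a mean of at least 1 TPM, JAG2, OAZ1, GLUL, ETFA, CCL20, LAMB2, IGF1R, NOTCH1, MYB, PDHA1 and VEGFA also had less on protein-coding transcripts than on others. Their shares ran from 23.9% (JAG2) to 48.8% (VEGFA), and further such shares are given beside the genes. For genes of lower means low shares are not given below, among them EMCN (10.1%), EGF (16%) and GRHL2 (0%).

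**Figure D1:**
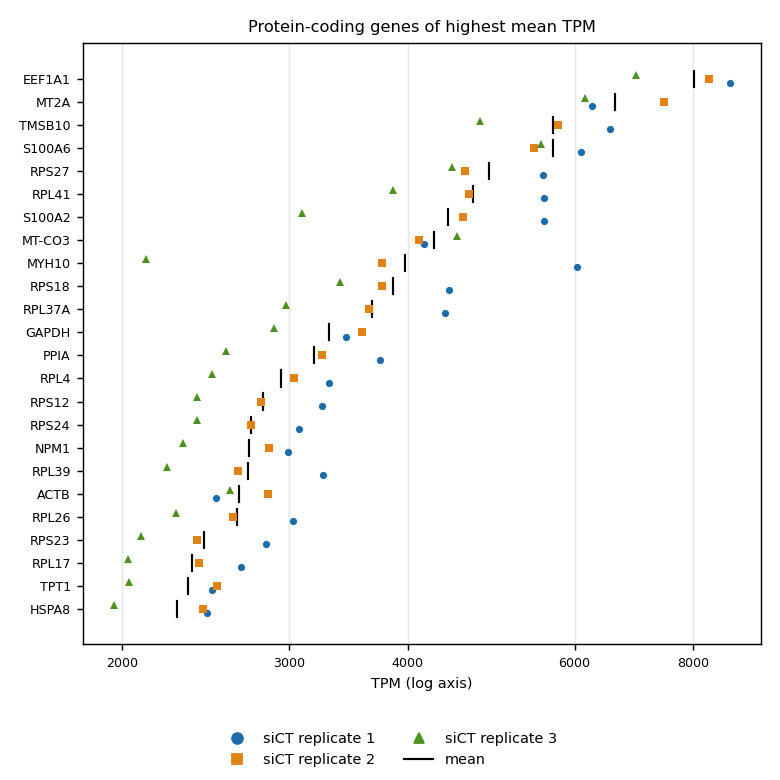
TPM (log axis) of protein-coding genes of the highest means, with 1 point for each siCT library and a bar at the mean. EEF1A1 leads at a mean of 8013 TPM and HSPA8 closes the list at 2284 TPM, and MYH10 has the widest spread, from 2120.1 to 6034 TPM.

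Promoter sequences were set beside the levels, since the core promoter differs between widely used and tissue-restricted genes. In RefSeq (GRCh38.p14), a promoter of 300 bases, from 250 before to 50 after the start, was given for 15113 of the protein-coding genes. The letters TATAA, the core of the TATA box, were searched on the gene's own strand only, between 45 and 16 bases before the start, and no other motif was searched. The 60 bases just before the start are shown for 3 of the highest genes and for KRT5, with TATAA in capitals.
MT2A: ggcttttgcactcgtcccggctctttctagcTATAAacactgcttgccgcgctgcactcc
S100A6: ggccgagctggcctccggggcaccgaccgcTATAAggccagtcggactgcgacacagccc
GAPDH: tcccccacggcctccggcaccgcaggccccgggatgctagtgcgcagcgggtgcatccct
KRT5: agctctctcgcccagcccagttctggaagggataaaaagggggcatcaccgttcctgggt
They lie at chr16:56608524-56608583 (+ strand), chr1:153535992-153536051 (- strand), chr12:6535204-6535263 (+ strand) and chr12:52520395-52520454 (- strand). MT2A and S100A6 have TATAA with its first base 29 and 30 bases before the start, and the windows of GAPDH and KRT5 hold no such letters. TATAA was found in 877 of 15113 (5.8%) promoters of the same length over all genes, in 249 of 8729 (2.85%) of genes at 1 TPM or more in every library and in 391 of 2780 (14.1%) of genes without a read. Genes at 100 TPM or more had it in 88 of 551 (16%), and the 100 highest genes in 15 of 74 (20.3%). Of these classes, that at 1 TPM or more, which includes the genes at 100 TPM or more, had the lowest share. CpG dinucleotides were 27 per promoter in the median of genes at 1 TPM or more and 6 in genes without a read, beside 22 over all. Among keratins below 1 TPM in all libraries, 19 of 30 (63.3%) had TATAA, beside 1 of 4 (25%) of keratins at 1 TPM or more. A promoter was given for only these 4, although 11 type II and 6 type I keratins reached 1 TPM. The shares of keratins can therefore not be compared. It was held by 7 of 17 (41.2%) of S100 promoters and 10 of 185 (5.41%) of metabolic genes at 1 TPM or more. A match of these letters is a description of the sequence and not of a used site.

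Keratin RNA summed to 6382, 7069 and 6126 TPM, and type II chains far exceeded type I chains. Of 26 type II keratins 11 were at 1 TPM or more in all libraries, and of 28 type I keratins 6 were (42.3% and 21.4%, beside 54.0% of all protein-coding genes). Type II keratins came to 5338, 5922 and 5172 TPM and type I keratins to 1044, 1147 and 954 TPM. The log2 ratio of type I to type II was -2.35, -2.37 and -2.44. Chains of both types are used in equal number in filaments, but their RNA did not stand at equal levels in any library.

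The highest keratin was KRT7 (chr12:52232520-52252186), a keratin of simple and ductal epithelium, at 1774, 1907 and 1829 TPM (1837 ± 66.7), of which 66.4% was on protein-coding transcripts. KRT81 (chr12:52285913-52291534), classed as a hair keratin, was at 1647, 1942 and 1579 TPM (1723 ± 193). Over all transcripts KRT7 and KRT81 did not differ beyond their spread, and both lay above KRT5 in every library. For KRT81 100% of the level was on protein-coding transcripts, so that over these alone KRT81 was the higher in the mean. KRT6A, a keratin of wounded and fast-renewing epithelium, was at 578, 641 and 637 TPM, and KRT8 of simple epithelium at 161, 163 and 132 TPM. Well below these, KRT86 was at 28.1, 41 and 38.1 TPM and KRT83 at 4.94, 8.96 and 8.91 TPM, both hair keratins next to KRT81. KRT81 aligned to KRT83 with 91% and to KRT86 with 90.9% identical bases, and KRT6A to KRT6B with 93.3% and to KRT6C with 95.9%. The low values of KRT6B (3.17 TPM) and KRT6C (2.67 TPM) in particular rest on how reads were shared out among such copies. The keratin KRT1 of the upper epidermis had no read in any library, where 3 reads in 1 library would have given at most 0.0931 TPM.

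Among type I keratins KRT17 (chr17:41619442-41624842), a basal and stress keratin, led at 593, 673 and 611 TPM (626 ± 42.2). KRT18, which pairs with KRT8, was at 273, 291 and 219 TPM (261 ± 37). KRT14 stood below both, and KRT15 of basal cells was at 48.5, 45.4 and 32 TPM. KRT16 was at 21.8, 22.4 and 20.7 TPM and KRT10 of differentiated epidermis at 8.51, 7.04 and 4.78 TPM. KRT14, KRT15, KRT18 and KRT10 were lowest in replicate 3, whereas KRT17 was not. KRT19, a defining luminal keratin, was at 0.0354, 0.0884 and 0.208 TPM from about 5 reads in all, which is close to the limit of detection. KRT7 exceeded it in every library. KRT5 RNA exceeded KRT14 RNA 12.4 ± 1.8 times, and KRT8 stood at 0.585 ± 0.021 of KRT18. The log2 ratio of KRT5 plus KRT14 to KRT8 plus KRT18 was 1.51, 1.53 and 1.51, and its SD of 0.013 was small beside it. KRT7, also listed as luminal, was not part of this ratio, although it exceeded KRT5 in every library. The ratio therefore depends on the keratins chosen and does not give the balance of all basal and luminal keratins. KRT14 aligned to KRT16 with 89.1% and to KRT17 with 86.9% identical bases. Besides, 5 transcripts without a match in the annotation have the length of the main KRT14 transcript (1636 bases) and held 28.8, 28 and 23.9 TPM. Whether they belong to KRT14 was not established, so that its level may be understated.

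**Figure D2:**
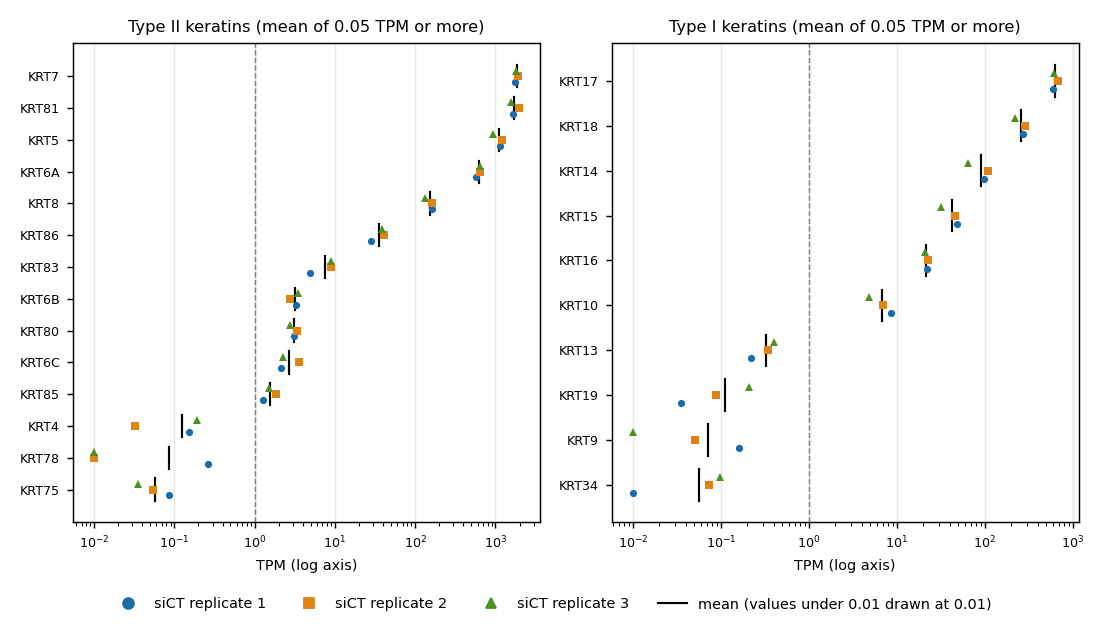
TPM (log axis) of type II and type I keratins with a mean of at least 0.05 TPM, 1 point for each siCT library, with the mean as a bar and 1 TPM as a dashed line. KRT7, KRT81 and KRT5 exceed every type I keratin in each library, and KRT19 lies below 1 TPM in all 3.

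Other intermediate filaments were represented by 4 of 15 genes (26.7%). Next to VIM these were the lamins of the nuclear envelope, with LMNA at 219, 279.6 and 243 TPM, LMNB1 at 68.5 ± 6.86 TPM and LMNB2 at 48.2 ± 3.13 TPM. Only 31.8% of LMNA and 30.5% of LMNB1 was on protein-coding transcripts. The neurofilament genes NEFL, NEFM and NEFH and INA had no read.

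Basal genes were nearly all present. Of the basal list 22 of 24 genes (91.7%) were at 1 TPM or more in all 3 libraries, beside 54.0% of all protein-coding genes, and the list's median was 78.6 TPM. After KRT5 and KRT17, CAV1 of caveolae was highest at 570.1, 554 and 451 TPM (525 ± 64.4). The laminin-332 chain LAMB3 was at 156 ± 35.5 TPM, and the serpin SERPINB5 (maspin) at 164, 162 and 138 TPM. LAMB3 was highest in replicate 3, and SERPINB5 was lowest there. At the low end NGFR, a surface marker of basal cells in tissue, was at 0.236, 0.248 and 0.174 TPM, SOX9 at 1.34, 1.56 and 1.18 TPM, and ID4, a regulator of basal cells, had 1 read.

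The contractile genes of myoepithelium were present in part, with 8 of 15 (53.3%) at 1 TPM or more, a share near that of all protein-coding genes. The tropomyosins TPM2 and TPM1 were at 218 ± 14.6 TPM and 80.4 ± 8.56 TPM, and CALD1 (caldesmon) at 65.5 ± 2.58 TPM. TAGLN had a mean of 32.5 ± 6.16 TPM, SMTN (smoothelin) of 15.8 ± 4.16 TPM and the surface peptidase MME (CD10) of 9.72 ± 2.25 TPM. ACTA2, the smooth muscle actin that defines contractile myoepithelium, was at 8.87, 10.0 and 10.2 TPM. In contrast, the smooth muscle myosin MYH11 (0.275 TPM) and the oxytocin receptor OXTR (0.231 TPM) stayed below 1 TPM, and ACTG2, DES and LMOD1 had 5, 2 and 0 reads in all.

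Luminal keratins and surface genes were present in part. Of the luminal list 10 of 15 (66.7%) were at 1 TPM or more, beside 54.0% of all protein-coding genes. Over protein-coding transcripts 9 of 15 (60%) were, beside 51.0%, so that neither share lay far from that of all genes. KRT7, KRT18 and KRT8 led the list, and KRT19 was not among those that passed. CD24 was at 142, 152 and 133 TPM, the tetraspanin CD9 at 42.5 ± 4.37 TPM and the mucin MUC1 at 21.6 ± 2.9 TPM. Of the luminal progenitor list 6 of 10 (60%) passed, a share near the 54.0% of all protein-coding genes. The antiprotease SLPI was at 309, 279.8 and 242 TPM and the aldehyde dehydrogenase ALDH1A3 at 73.1, 69.8 and 47.9 TPM. CXCL1 was at 6.94, 8.45 and 20.3 TPM, CD14 at 4.84 ± 0.741 TPM, BCL11A at 3.93 ± 0.444 TPM and FOXC1 at 3.43 ± 0.284 TPM. Both SLPI and ALDH1A3 were lowest in replicate 3. KIT, a defining receptor of luminal progenitors, had 1 read, as had LTF, and ELF5, the factor of alveolar cells, had 0.055 TPM.

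Hormone-sensing genes were mostly near 0. Only 4 of 16 (25%) reached 1 TPM in every library, and the list's median was 0.109 TPM. XBP1, a factor of the secretory and unfolded protein pathway, was at 39.4, 41.5 and 37.4 TPM and far above the others. TBX3 was at 3.36 ± 0.723 TPM, and FOXA1 and GATA3, the factors that define mature luminal cells, at 2.34, 2.44 and 1.22 TPM and 1.55, 1.45 and 1.38 TPM. MYB had a mean of 1.26 ± 0.341 TPM and BCL2 of 0.778 ± 0.0859 TPM. The oestrogen receptor ESR1 was at 0.196, 0.0693 and 0.114 TPM. PGR had no read, where 3 reads in 1 library would have given at most 0.0913 TPM. TFF1, TFF3, SPDEF and ANKRD30A had none either, so that their expression was not detectable at this depth. Of 10 milk genes only XDH, a xanthine oxidoreductase also used outside the breast, passed at 6.72, 7.48 and 5.55 TPM. OLAH, PAEP, PIGR and LTF had means of 0.877, 0.157, 0.115 and 0.0121 TPM, and the caseins CSN1S1, CSN2 and CSN3 and LALBA had no read.

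Factors of the epithelial state stood beside factors known from epithelial-mesenchymal transition (EMT). Of the former 11 of 16 (68.8%) passed, beside 54.0% of all protein-coding genes. KLF5 was at 76.6, 79.3 and 64.2 TPM, lowest in replicate 3. The splicing regulators ESRP2 and ESRP1 were at 29.2 ± 3.72 TPM and 9.03 ± 2.32 TPM, the protease gene ST14 at 28.6 ± 4.83 TPM and TFAP2A at 15.4 ± 2.21 TPM. In contrast, GRHL2, a keeper of the epithelial state in many tissues, was at 0.0442, 0.107 and 0.163 TPM from about 5 reads. Of the EMT factors 6 of 9 (66.7%) passed. Over protein-coding transcripts alone the counts were 9 of 16 (56.2%) and 5 of 9 (55.6%), beside 51.0% of all protein-coding genes, so that neither share lay far from that of all genes. SNAI2, which is also a normal basal cell factor, was at 27.1, 28.7 and 28.7 TPM, followed by TWIST1 at 5.33, 6.46 and 7.21 TPM. ZEB2, TCF4, ZEB1 and FOXC2 were between 1.75 and 5.52 TPM in the mean, and SNAI1 was at 0.196, 0.175 and 0.603 TPM. For ZEB1 35.4% and for TCF4 45.2% of the level was on protein-coding transcripts.

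Genes of squamous differentiation were low. Only 3 of 22 (13.6%) passed, namely KRT10, the cornified envelope gene SPRR1B at 7.02, 7.24 and 4.44 TPM and SPRR2D at 2.2, 1.84 and 1.3 TPM. KLK7, KLK5, CNFN and S100A7 had means of 1.6, 1.04, 0.955 and 0.603 TPM. Filaggrin (FLG) had 4 reads, and LORICRIN, TGM3 and CDSN had none.

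Markers of other cell types were checked in the same libraries. In the endothelial and hepatocyte lists no gene reached 1 TPM in all libraries. Of the endothelial genes the highest was EMCN at 0.113, 0.449 and 0.222 TPM, PECAM1 was at 0.137, 0.143 and 0.14 TPM and VWF had 4 reads, while ALB, APOA1 and TTR of hepatocytes had none. The immune list had 2 of 15, namely the lysosomal gene CD68 at 6.19, 8.42 and 8.43 TPM and CD14, while LYZ was at 1.2 ± 0.473 TPM, PTPRC (CD45) at 0.0361 TPM and CD3E, MS4A1 and NKG7 had no read. In the adipocyte list only PPARG passed, at 8.13, 9.87 and 6.92 TPM, with ADIPOQ at 0.0692 TPM. The neural list had MBP at 7.15, 8.27 and 6.38 TPM with SOX10, ELAVL3 and ELAVL4 at 0. MITF of the melanocyte list was at 3.63, 2.91 and 2.82 TPM with TYR and DCT at 0. HBB of red cells had no read.

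Genes of fibroblasts and mesenchyme were the fullest of these lists, with 7 of 18 (38.9%) at 1 TPM or more. Fibronectin (FN1) was at 23.4, 22.7 and 66.9 TPM and thus highest in replicate 3, far above the other libraries. SPARC was at 36.6, 36.7 and 33.9 TPM and the proteoglycan gene DCN at 20.6, 22.2 and 28.1 TPM. CDH2 (N-cadherin) was at 7.77, 8.12 and 7.95 TPM, the protease gene FAP at 6.05, 6.11 and 10.7 TPM, MMP2 at 2.01 ± 0.341 TPM and COL6A3 at 1.77 ± 0.0821 TPM. Among the collagens of this list COL1A1, a main collagen of fibroblasts, was at 0.673, 1.77 and 1.91 TPM, above the limit of 0.0692 TPM that 3 reads in 1 library would have given at most. COL1A2, COL3A1 and COL5A1 had 1 read each over all libraries, and LUM had 2 reads.

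**Figure D3:**
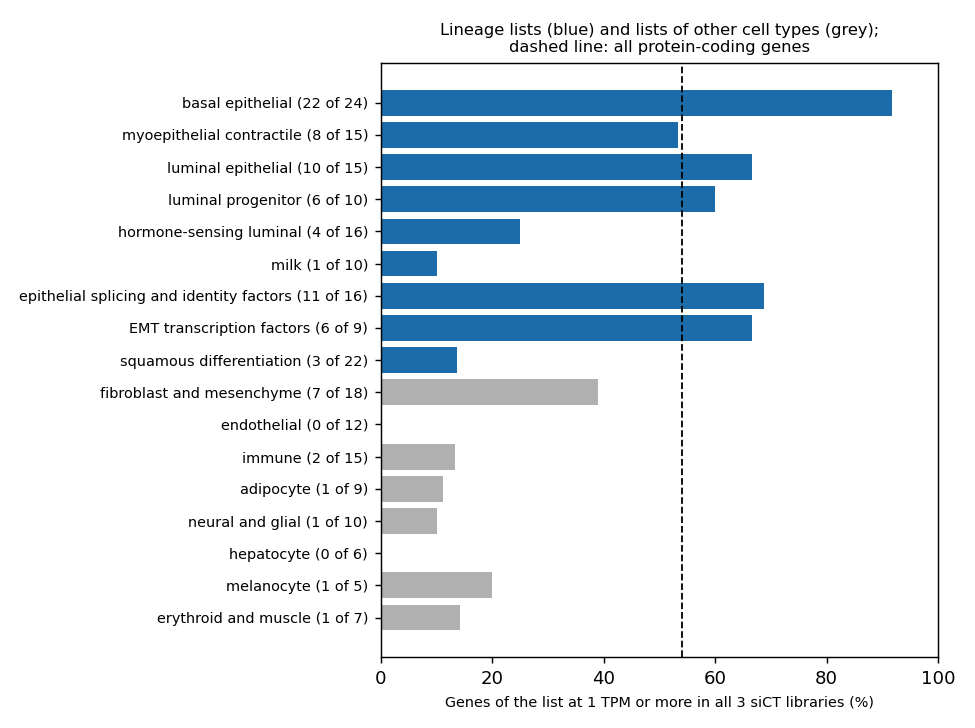
Share of genes in each list at 1 TPM or more in all 3 siCT libraries (%), for lists of mammary and epithelial lineages (blue) and of other cell types (grey), with the share of all protein-coding genes (54.0%) as a dashed line. The basal list is the fullest at 91.7%, and no list of other cell types reaches the dashed line.

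Nuclear receptors were led by those for hydrocortisone and retinoids. Of 48 receptors 19 (39.6%) were at 1 TPM or more, beside 54.0% of all protein-coding genes. The glucocorticoid receptor NR3C1, the target of the hydrocortisone in the medium, was highest at 31.3, 32.7 and 29.5 TPM. The retinoic acid receptor RARG was at 25.5, 29.1 and 23.8 TPM, the orphan receptor ESRRA at 20.2, 27.8 and 23.9 TPM and RXRA, the common partner of several receptors, at 13.6, 16.5 and 15.4 TPM. NR3C1 exceeded RARG in every library. NR1H2 (liver X receptor beta) was at 14.1 ± 1.79 TPM and the vitamin D receptor VDR at 13.1 ± 1.26 TPM. PGR, NR5A1, NR0B1 and NR0B2 had no read.

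EGFR, the receptor for the EGF in the medium, was the highest of the receptor tyrosine kinases. Of 57 kinases 22 (38.6%) were at 1 TPM or more, beside 54.0% of all protein-coding genes. EGFR was at 44.9, 47.7 and 49.8 TPM (47.5 ± 2.48), and the ephrin receptor EPHA2 at 38.9, 50.4 and 44.7 TPM (44.7 ± 5.78), so that these means did not differ beyond their spread. AXL was at 34.6, 40.4 and 31.7 TPM, the HGF receptor MET at 33.3, 32.7 and 27.6 TPM and PTK7 at 29.9, 27.8 and 32.5 TPM. ROS1 was at 20.3, 22.3 and 42.9 TPM, highest in replicate 3. ERBB2 was at 18.5, 19.3 and 20.0 TPM, and EGFR RNA exceeded ERBB2 RNA 2.46 ± 0.0329 times. RET and ERBB4 had no read. ERBB2 and IGF1R (8.04 ± 2.74 TPM) are named after their values were seen.

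The cells also carried RNA of EGFR ligands. Of 11 genes 7 (63.6%) passed, and 6 (54.5%) over protein-coding transcripts, beside 54.0% and 51.0% of all protein-coding genes. Amphiregulin (AREG) led at 234, 251 and 217 TPM (234 ± 17.1). Epigen (EPGN) was at 60.9, 60.4 and 36.3 TPM, lowest in replicate 3, and TGFA at 14.7, 15 and 13.7 TPM. EREG was at 5.4 ± 0.404 TPM and HBEGF at 3.2 ± 0.154 TPM, whereas EGF itself was at 0.0743 TPM. AREG exceeded EREG 43.5 ± 3.23 times. NRG4 was at 2.79 ± 1.26 TPM with none of it on protein-coding transcripts.

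Receptors of the TGF-beta family were present in 11 of 14 (78.6%), beside 54.0% of all protein-coding genes. The type II receptor TGFBR2 was at 68, 67.8 and 65.5 TPM and the type I receptors TGFBR1 and BMPR1A at 13.6 ± 0.541 TPM and 18.1 ± 1.52 TPM. ENG, BMPR2 and BMPR1B followed at 8.76, 6.84 and 4.18 TPM. The summed level of the family varied little between libraries, at 133, 135 and 131 TPM. In the Notch pathway 4 of 9 genes (44.4%) passed, a share below that of all genes. The receptor NOTCH2 was at 24.9, 27.3 and 29.7 TPM and the ligands JAG2 and JAG1 at 18.3 ± 4.44 TPM and 9.02 ± 0.619 TPM. NOTCH1 was at 7.29 ± 1.39 TPM and the ligand DLL3 and the receptor NOTCH3 below 1 TPM in the mean, while NOTCH4, DLL1 and DLL4 had no read. Of 14 Wnt receptors and coreceptors 6 (42.9%) passed, also a share below that of all genes. The frizzled receptor FZD6 was at 60.3, 59.2 and 50.9 TPM and LRP5 at 13.5 ± 3.34 TPM. LGR4 was at 9.7 ± 0.457 TPM, and FZD3, FZD8 and FZD5 were between 1.4 and 5.11 TPM. LGR5 and LGR6, which mark stem cells in several epithelia, had no read.

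Cytokine and death receptors were the fullest receptor list, with 24 of 29 (82.8%) at 1 TPM or more, beside 54.0% of all protein-coding genes. The TWEAK receptor TNFRSF12A was at 185, 181 and 189.8 TPM, with all 3 libraries close together. LTBR was at 84.3 ± 9.2 TPM, IL20RB at 80.3 ± 8.08 TPM and the TRAIL receptor TNFRSF10B at 60.5 ± 3.08 TPM. IL6ST (gp130) was at 46.2 ± 3.63 TPM and the TNF receptor TNFRSF1A at 46 ± 0.907 TPM, whereas TNFRSF1B was at 0.084 TPM. PRLR, the prolactin receptor of secretory mammary cells, was at 0.0465 TPM. Of 37 G protein-coupled receptors 14 (37.8%) passed, a share below that of all genes. The retinoic acid-induced GPRC5A was at 80.0, 77.8 and 68.9 TPM and the adenosine receptor ADORA2B at 28.1, 29 and 17.5 TPM. ADGRE5 and the protease-activated receptor F2RL1 were at 13.2 and 12.2 TPM. P2RY11 was listed at 9.77 TPM with 11.1% of it on protein-coding transcripts.

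Integrins for laminin and fibronectin led among adhesion receptors. Of the alpha chains 11 of 18 (61.1%) and of the beta chains 6 of 8 (75%) were at 1 TPM or more, beside 54.0% of all protein-coding genes. Over protein-coding transcripts alone 7 of 18 alpha chains (38.9%) passed, beside 51.0% of all protein-coding genes. The laminin-binding chains ITGA3 and ITGA6 were at 156, 155 and 176 TPM and 128, 130.4 and 109.6 TPM. ITGA5 of the fibronectin receptor was at 75.9, 83 and 119 TPM, and ITGA3 and ITGA5 were highest in replicate 3 while ITGA6 was lowest there. ITGAV and the collagen-binding ITGA2 were at 31.8 ± 2.15 TPM and 18.6 ± 1.55 TPM. ITGAE and ITGA1 were listed at 29.8 TPM and 10.9 TPM, but none of the former and 2.94% of the latter was on protein-coding transcripts, and the same held for ITGA7 (0.766% of 6.65 TPM) and ITGAL (none of 1.43 TPM), which are named after their values were seen. ITGB1, the common partner of most of these chains, was at 331, 331 and 306 TPM (323 ± 14.2), ITGB4 of hemidesmosomes at 78.1, 95.3 and 111 TPM, ITGB5 at 50.8 ± 2.28 TPM, ITGB8 at 18.8 ± 0.742 TPM and ITGB6 at 12 ± 1.35 TPM. ITGB2, the leukocyte chain, was at 3.74, 5.39 and 5.66 TPM. In TPM without rescaling, ITGB1 was lowest in replicate 3, whereas ITGB4 was highest there and lowest in replicate 1. The order of ITGB1 does not hold on the rescaled scale.

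All 6 hemidesmosome genes were above 10 TPM in every library. Hemidesmosomes anchor the keratin filaments of basal cells to the basement membrane. CD151 was at 154, 176 and 175 TPM, COL17A1 (collagen XVII) at 88.3, 83.7 and 75.1 TPM and DST at 69.7, 75.5 and 65.1 TPM. PLEC, the plectin that links keratins to the plaque, was at 32.4, 59 and 82.8 TPM, lowest in replicate 1 and highest in replicate 3. Of the laminins 8 of 12 (66.7%) passed, and 7 of 12 (58.3%) over protein-coding transcripts, beside 54.0% and 51.0% of all protein-coding genes. LAMA3 was at 76.4, 81.6 and 84.9 TPM, LAMC1 at 83.6 ± 5.23 TPM, LAMB1 at 54 ± 3.98 TPM and LAMB2 at 48 ± 6.21 TPM. LAMA3 and LAMB3 are chains of laminin-332, the ligand of hemidesmosomes, and RNA of LAMB3 exceeded that of LAMA3 1.91 ± 0.34 times.

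Among genes of adherens junctions, P-cadherin RNA stood above E-cadherin RNA. Of 13 cadherin and catenin genes 8 (61.5%) passed, beside 54.0% of all protein-coding genes. The catenins CTNNA1, CTNNB1 and CTNND1, which tie cadherins to actin, were at 208 ± 15.2 TPM, 126 ± 12.9 TPM and 39.8 ± 4.41 TPM. CDH3 (P-cadherin), typical of basal cells, was at 77.7, 82.6 and 68.5 TPM and exceeded CDH1 3.13 ± 0.0414 times, in a like ratio in each library. Only 43% of CDH3 was on protein-coding transcripts, against 79.9% of CDH1. The log2 ratio of CDH1 to CDH2 was 1.70, 1.69 and 1.44, lowest in replicate 3. CDH13 was at 20.0, 17.2 and 24.5 TPM. CDH5, CDH6 and CDH11 were near 0.

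Desmosome genes were present in 11 of 15 (73.3%), beside 54.0% of all protein-coding genes. PERP was at 69.9 ± 6.39 TPM, desmoplakin (DSP) at 61, 64.6 and 67 TPM, DSG2 at 51.3 ± 5.63 TPM, plakoglobin (JUP) at 38.1 ± 5.12 TPM, PKP3 at 34.5 ± 6.17 TPM and DSG3 at 28.5 ± 4.78 TPM. DSG1 and DSC1, the desmosomal cadherins of the upper epidermis, had 3 reads and 1 read. Tight junction claudins, on the other hand, were sparse, with 3 of 22 (13.6%) at 1 TPM or more. CLDN12 was at 9.8, 9.02 and 11.4 TPM, CLDN1 at 5.21, 5.77 and 4.76 TPM, CLDN15 at 1.94 ± 0.575 TPM and CLDN4 at 1.21, 1.52 and 0.899 TPM, and 10 claudins had no read. Of the scaffolds of tight junctions 9 of 11 (81.8%) were at 1 TPM or more. Over protein-coding transcripts 7 of 11 (63.6%) were, beside 51.0% of all protein-coding genes. F11R was at 57.3 ± 9.07 TPM, TJP1 at 22.7 ± 0.908 TPM and PARD3 at 21.9 ± 2.2 TPM. MARVELD2 was at 9.2 ± 1.32 TPM and OCLN (occludin) at 3.8 ± 0.658 TPM. Connexins, the subunits of gap junctions, passed in 5 of 20 (25%), a share below that of all genes. GJB5, a connexin of stratified epithelium, was at 31.8, 33.5 and 23.1 TPM, lowest in replicate 3. GJB2, GJC1 and GJA3 were at 5.15, 4.42 and 2.3 TPM. GJA1, the widespread connexin 43, was listed at 0 in all libraries and is named after its values were seen.

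**Figure D4:**
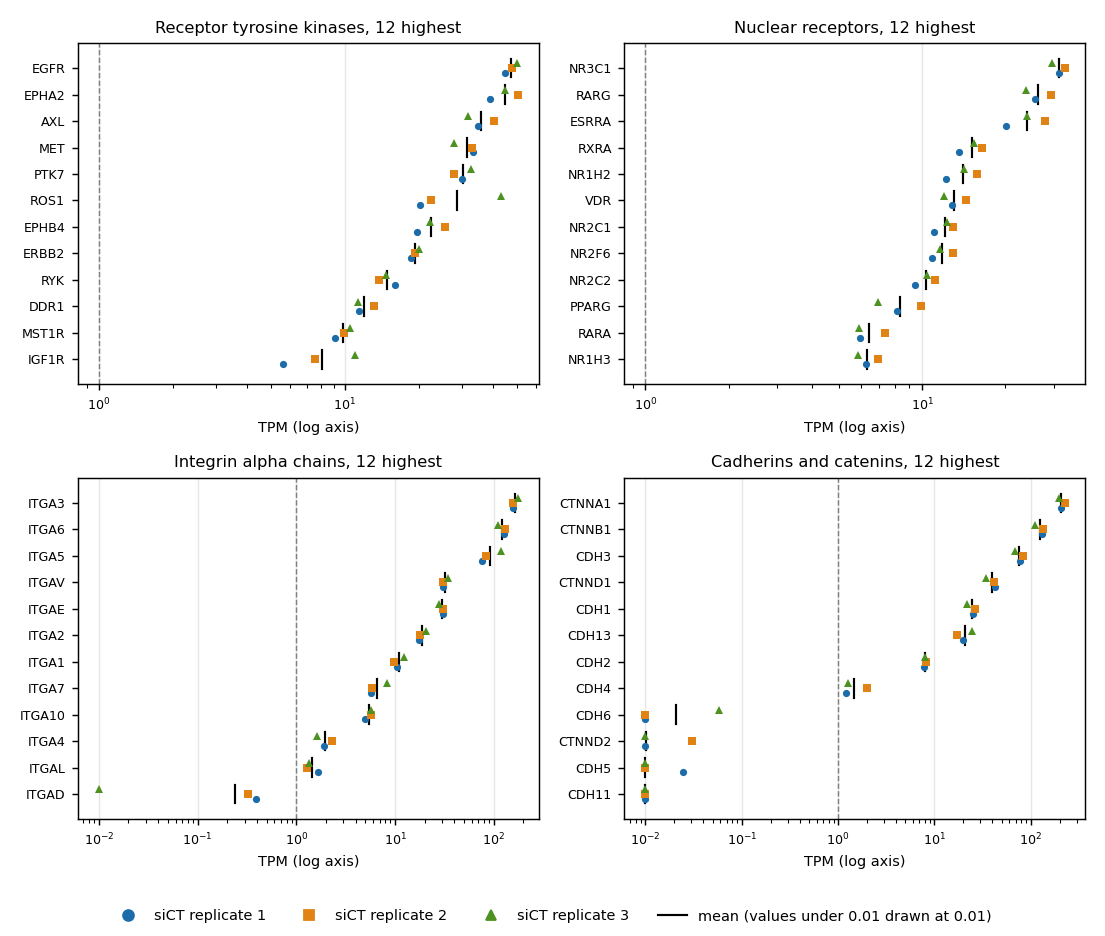
TPM (log axis) of the 12 highest receptor tyrosine kinases, nuclear receptors, integrin alpha chains and cadherins or catenins, with 1 point for each siCT library, the mean as a bar and 1 TPM as a dashed line. EGFR, NR3C1, ITGA3 and CTNNA1 lead their panels, and ROS1 stands out with replicate 3 (42.9 TPM) above replicates 1 and 2.

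Focal adhesion genes passed in 17 of 19 (89.5%), beside 54.0% of all protein-coding genes. The actin crosslinker FLNA was at 134, 193 and 204 TPM and TNS4 at 141, 179 and 202 TPM. ACTN1 was at 129.8 ± 10.2 TPM and ACTN4 at 45.8, 72.1 and 77.6 TPM, so that FLNA, TNS4 and ACTN4 were lowest in replicate 1, while VCL (vinculin) was at 61.9, 65.8 and 62.1 TPM. Among other surface molecules, of which 21 of 24 passed, the tetraspanins CD63 and CD81 were at 211 ± 11.4 TPM and 101 ± 4.41 TPM, the hyaluronan receptor CD44 at 98.9, 102 and 87.1 TPM, the syndecans SDC4 and SDC1 at 75.3 ± 2.19 TPM and 73 ± 9.63 TPM, and CEACAM6 at 0.131 TPM.

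Matrix genes were counted in 2 lists. Of 27 collagens 11 (40.7%) passed, beside 54.0% of all protein-coding genes. After COL17A1 came the basement membrane chains COL4A5, COL4A2, COL4A1 and COL4A6 at 28.9 ± 2.52 TPM, 27.5 ± 5.18 TPM, 18.4 ± 3.57 TPM and 17.4 ± 2.42 TPM, and COL8A1 at 23.1 ± 5.73 TPM. The fibrillar collagen COL5A2, named after its values were seen, was at 2.57, 2.83 and 2.54 TPM. Of the matricellular and plasminogen genes 21 of 27 (77.8%) passed. TGFBI, a TGF-beta-induced matrix protein, was at 665, 663 and 998 TPM, highest in replicate 3, and the protease inhibitor TIMP1 at 626, 618 and 605 TPM. THBS1 (thrombospondin) was at 171 ± 12.7 TPM and FBLN1 at 49.4 ± 6.11 TPM. The collagenases and stromelysins MMP1, MMP3, MMP10 and MMP13 had between 0 and 3 reads in all.

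Summed over the lists, glycolytic RNA exceeded that of the tricarboxylic acid (TCA) cycle. Of 25 glycolytic genes 17 (68%) were at 1 TPM or more, beside 54.0% of all protein-coding genes. The other glycolytic genes include isozymes of testis or liver. Their sum was 9946, 10272 and 8507 TPM. After GAPDH, the enolase ENO1 was at 2011, 2016 and 1686 TPM, the pyruvate kinase PKM at 1008, 1025 and 896 TPM and the lactate dehydrogenase chain LDHB at 837, 797 and 638 TPM. ALDOA and TPI1 were at 708 ± 67.6 TPM and 674 ± 86.7 TPM. All of ENO1, PKM, LDHB and TPI1 were lowest in replicate 3. The chain LDHA was not analysed here, so that the balance of the lactate dehydrogenase chains cannot be given. HK1 exceeded HK2 5.24 ± 0.423 times and PFKP exceeded PFKL 4.28 ± 0.76 times, pairs named after their values were seen. The liver form PKLR had no read.

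Of the pyruvate dehydrogenase and TCA cycle genes 24 of 26 (92.3%) passed, with a sum of 1816, 1814 and 1479 TPM. Fumarase (FH) was at 196, 195 and 154 TPM, MDH1 at 146 ± 20.4 TPM, SDHB at 133 ± 16.3 TPM, SDHD at 104 ± 16.8 TPM, PDHA1 at 102 ± 11.1 TPM and citrate synthase (CS) at 101 ± 8.82 TPM. The log2 ratio of the glycolytic to the TCA sum was 2.45, 2.50 and 2.52, with an SD of 0.0362. It is a ratio of RNA sums and says nothing of flux. The medians of the lists stood in the other order, at 35.3 TPM for glycolysis and 61.9 TPM for pyruvate dehydrogenase and the TCA cycle. Lactate export was represented by the carrier SLC16A3 at 130.3, 167 and 177 TPM and SLC16A1 at 77.3, 78.7 and 67.6 TPM, with their chaperone BSG at 233 ± 28.4 TPM. SLC16A3 was lowest in replicate 1 and SLC16A1 in replicate 3. The glucose transporter SLC2A1 was at 24.1, 30.1 and 24 TPM, with 28.9% on protein-coding transcripts, followed by SLC2A9 at 11.4 ± 1.31 TPM and SLC16A7 at 9.84 ± 0.749 TPM.

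**Figure D5:**
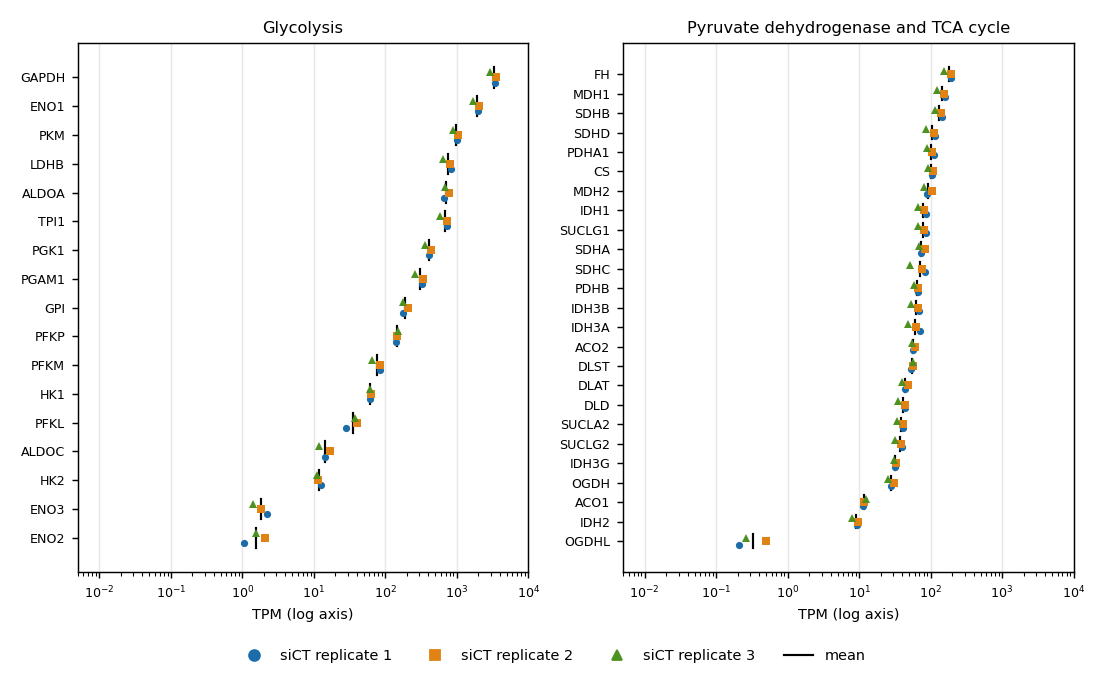
TPM (log axis) of glycolytic genes and of genes of pyruvate dehydrogenase and the TCA cycle with a mean of at least 0.05 TPM, with 1 point for each siCT library and the mean as a bar. The highest glycolytic gene, GAPDH at a mean of 3304 TPM, lies far above the highest of the TCA cycle, FH at 182 TPM.

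The pentose phosphate pathway passed in 7 of 9, with the transketolase TKT at 369, 454 and 355 TPM, TALDO1 at 84.6 ± 2.65 TPM, PGD at 50.3 ± 3.46 TPM, RPE at 49.4 ± 5.05 TPM and PGLS at 18 ± 3.22 TPM. All 13 mitochondrially encoded mRNAs were above 100 TPM in every library, and 72 of 76 (94.7%) of the nuclear respiratory chain genes were at 1 TPM or more. After MT-CO3, MT-ATP8 was at 2259 ± 267 TPM, MT-CO1 at 1685, 1837 and 2304 TPM, MT-CO2 at 1262 ± 77.2 TPM, MT-ATP6 at 1152 ± 62.4 TPM and MT-ND4L at 1077 ± 79.6 TPM. The nuclear ATP synthase subunits ATP5ME and ATP5MF were at 1041, 859 and 714 TPM and 867, 715 and 636 TPM, and UQCRQ and UQCRH of complex III at 638 ± 121 TPM and 627 ± 98.6 TPM. COX7C was at 694 ± 132 TPM and NDUFS5 at 522 ± 81.5 TPM. MT-CO1 was highest in replicate 3, whereas ATP5ME and ATP5MF were lowest there. The log2 ratio of the 2 lists' medians was 2.64, 2.44 and 2.80, and replicates 2 and 3 differed the most. The sums of the lists did not stand in this order, since the mitochondrial mRNAs came to 14098, 13897 and 16006 TPM and the nuclear genes, which are more numerous, to 17934, 16450 and 13500 TPM. The log2 ratio of the sums was -0.11 ± 0.32, and the mitochondrial sum was the higher in replicate 3 only.

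Lipid and amino acid metabolism was broadly represented. Fatty acid synthesis passed in 17 of 20, with ACLY at 97.6 ± 9.5 TPM, the synthase FASN at 55.4, 109 and 95.7 TPM, lowest in replicate 1, ACSL3 at 82.8 ± 8.38 TPM and the desaturase SCD at 67.5 ± 10.1 TPM. Fatty acid oxidation passed in 14 of 16, with ACADVL at 242, 279 and 287 TPM, ETFA at 118 ± 18.5 TPM, HADHB at 97.9 ± 11.4 TPM and HADHA at 94.6 ± 8.82 TPM. Cholesterol synthesis passed in 21 of 22, with FDPS at 470.4, 438 and 366 TPM, EBP at 113 ± 16.7 TPM and the squalene epoxidase SQLE at 107 ± 11.2 TPM. For FDPS and ACADVL 31% and 36.2% of the level was on protein-coding transcripts. All 20 genes of glutamine, serine and one-carbon metabolism passed, and the amino acid carrier chains SLC7A5 and SLC3A2 were at 328, 415 and 333 TPM and 351, 361 and 276 TPM. MTHFD2, GLUD1, GLUL and SHMT2 had means between 102 and 119.7 TPM. In the arginine list 4 of 9 passed, with the argininosuccinate synthase ASS1 at 133, 145 and 125 TPM and CPS1 at 7.96, 7.82 and 7.33 TPM, while ARG1 and OTC had no read.

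The polyamine genes passed in 9 of 11, with the antizyme OAZ1 at 503, 574 and 452 TPM, AHCY at 142 ± 16.8 TPM, the decarboxylase ODC1 at 148, 152 and 124 TPM, MAT2A at 124 ± 12 TPM and SMS at 106 ± 9.37 TPM. MTAP, which salvages methionine from methylthioadenosine, was an exception at 0.267, 0.308 and 0.427 TPM. It lies on chromosome 9 next to CDKN2A and CDKN2B, the genes of a pair of inhibitors of cyclin-dependent kinases. CDKN2A (chr9:21967752-21995301) and CDKN2B (chr9:22002903-22009305) had no read in any library, where 3 reads in 1 library would have given at most 0.339 TPM and 0.0756 TPM. Their neighbours were looked up after these values were seen. To one side FOCAD (chr9:20658309-20995955) was at 8.15, 8.67 and 6.98 TPM and KLHL9 (chr9:21329665-21335404) at 3.11, 2.97 and 2.82 TPM, to the other DMRTA1 (chr9:22446824-22455740) at 0.187, 0.237 and 0.104 TPM, ELAVL2 (chr9:23690104-23826337) at 4.55, 5.5 and 4.72 TPM and TUSC1 (chr9:25676969-25678444) at 5.41, 6.24 and 6.45 TPM. Thus the 4 genes named from MTAP (chr9:21802636-21937651) to DMRTA1 were below 1 TPM in every library. Whether DNA was lost there was not tested, as RNA levels do not show it. ELAVL2, an RNA-binding protein best known from neurons, was present at a few TPM.

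Cell cycle genes were all present. All 25 cell cycle genes were at 1 TPM or more, with CCNB1 at 227, 226 and 181 TPM, PCNA at 176, 179 and 140.4 TPM, MCM7 at 125 ± 13.5 TPM, CDK4 at 93.8 ± 9.95 TPM, CDK1 at 92.6 ± 9.58 TPM and MCM4 at 85.9 ± 9.89 TPM. Among inhibitors and tumour suppressors 15 of 18 passed, with CDKN1A (p21) at 53.3, 54.9 and 51.8 TPM, NF2 at 46.8 ± 6.26 TPM and STK11 at 23.9 ± 1.4 TPM. PDCD4, the gene that the study silenced in the other libraries, was at 57.2, 60.2 and 38.5 TPM (52 ± 11.7), lowest in replicate 3. Of it 39.3% was on protein-coding transcripts.

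Genes known to answer the additions to the medium were described next. All 12 glucocorticoid-induced genes were at 1 TPM or more. After MT2A, MT1X was at 183, 168 and 166 TPM, DUSP1 at 109, 119 and 125 TPM, FKBP5 at 79.6, 81.7 and 68.8 TPM, ERRFI1 at 43 ± 1.43 TPM and TFCP2L1 at 29.2 ± 3.32 TPM. Of the genes of cyclic AMP response 5 of 10 (50%) passed, a share near the 54.0% of all protein-coding genes. AREG was highest, with SIK1 at 37.5 ± 1.62 TPM, PDE4D at 22.4 ± 2.35 TPM and CREB1 at 18.6 ± 2.54 TPM. NR4A1 and FOSB were at 0.811 TPM and 0.22 TPM. Genes downstream of ERK signalling passed in 12 of 13, with MYC at 149, 163 and 139 TPM, FOSL1 at 31.8, 34.9 and 32.9 TPM, DUSP6 at 27.2 ± 3.15 TPM, DUSP4 at 26.2 ± 0.547 TPM and PHLDA1 at 21.2 ± 1.16 TPM. The group holds cells in 1 medium, so that their part in these levels was not tested.

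Interferon-stimulated genes passed in 16 of 22 (72.7%), beside 54.0% of all protein-coding genes. Over protein-coding transcripts alone 11 of 22 (50%) passed, beside 51.0%, so that this share was near that of all genes. B2M of MHC class I was at 473, 454 and 417 TPM, HLA-C at 52.9 ± 2.88 TPM, BST2 at 26.5 ± 1.39 TPM and HLA-B at 15.8 ± 0.812 TPM, whereas IFIT1 and IFIT2 were at 0.211 TPM and 0.42 TPM. In the list of inflammatory secreted genes 10 of 17 (58.8%) passed, and 9 of 17 (52.9%) over protein-coding transcripts, shares near those of all genes. IL18 was at 111, 107 and 99.2 TPM, IL1A at 26.9 ± 2.08 TPM and CCL20 at 19.9 ± 2.32 TPM. CSF3 was at 11.8, 16.6 and 21.3 TPM, CXCL8 at 6.71, 7.08 and 14.4 TPM and IL1B at 5.87, 7.45 and 9.31 TPM, all highest in replicate 3, and TNF had no read. Genes of iron and hypoxia passed in 9 of 10, with the ferritins FTH1 and FTL at 1433, 1483 and 1723 TPM and 516, 502 and 571 TPM, HIF1A at 134 ± 7.53 TPM, the transferrin receptor TFRC at 131 ± 2.72 TPM and VEGFA at 36, 41.1 and 54.9 TPM.

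The S100 family, genes of small calcium-binding proteins, passed in 12 of 18 (66.7%), beside 54.0% of all protein-coding genes. All of the S100 genes that passed were above 10 TPM. After S100A6 and S100A2 came S100A11 at 1069, 998 and 860.2 TPM, S100A16 at 503 ± 68.1 TPM, S100A10 at 404 ± 36.4 TPM and S100A13 at 399.5 ± 61.2 TPM. S100A14, chosen after its values were seen, was at 350.2, 305 and 199.7 TPM. Like S100A2 and S100A11, it was highest in replicate 1 and lowest in replicate 3. S100A12, S100B and S100G had no read.

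The spread between libraries was small for most genes. Over the 6465 protein-coding genes with a mean of at least 10 TPM the median coefficient of variation (CV) was 0.103, and 92.6% of them had a CV under 0.2, while 83 had one over 0.3. Without replicate 3 the median CV was 0.0495, and it was 0.106 and 0.102 without replicates 1 and 2. The 8 highest were SNRNP25, PAM16, ENSG00000144785, FN1, CXCL1, BOLA2, PLXNA3 and MYH10. SNRNP25 was at 25.1, 3.9 and 3.19 TPM, PAM16 at 0, 11.3 and 19.9 TPM, ENSG00000144785 at 1.88, 20.1 and 14.8 TPM and BOLA2 at 20.8, 51.7 and 76.8 TPM. BOLA2 has a near-identical copy, and its level depends on how reads were shared out. PLXNA3, a semaphorin receptor, was at 12, 15.8 and 31 TPM, with 11.3% on protein-coding transcripts. The secreted FN1 and CXCL1 were both far higher in replicate 3, the library with the fewest counts. Against the mean of the others, 6 genes were more than 2 times higher and 10 less than 0.5 times that mean in replicate 3, beside 2 and 7 in replicate 1 and 1 and 2 in replicate 2.

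Splice forms were read from the transcripts' levels in genes whose forms differ between epithelial states. TP63 used the start of the DeltaN form, which lacks the N-terminal activation domain and is typical of basal cells. Transcripts from that start (chr3:189789659) held 99.4% ± 0.511 of the gene's TPM, and those of the upstream start 0.129, 0 and 0.0865 TPM. PKM carried the M2 exon (chr15:72202454-72202620), common in proliferating cells, in transcripts with 83.1% ± 2.4 of its TPM, and the alternative M1 exon (chr15:72203022-72203188) in transcripts with 1.07% ± 0.151. The remainder lay on transcripts that do not tell them apart. ITGA6 was mostly in the form with the 130-base cassette exon (chr2:172501772-172501901), at 74% ± 1.17, which gives the A form of the cytoplasmic tail. In every library this share was above the 12.7% ± 2.27 of transcripts that span the exon without it. For CD44, with 38 transcripts, the transcript with 9 exons, which lacks the variable exons, held 33.9% ± 0.606. A transcript with 12 exons held 13.4% ± 2.34 and another with 17 exons 6.22% ± 0.876. The remainder of CD44 lay on other transcripts and was not assigned to a form. PLEC was mainly on the transcripts PLEC-210 (57.5% ± 1.97) and PLEC-202 (27.5% ± 1.39), in like shares in all libraries although the gene's level differed. FGFR2, whose forms differ between epithelium and mesenchyme and were not told apart here, was at 1.88, 1.43 and 1.15 TPM.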

How the data were processed

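Total RNA of the 3 siCT libraries was analysed, grouped by sample title. The authors ran Salmon (version not given in the sources used here) against GRCh38 transcripts and deposited TPM values and estimated counts for each transcript of each library. The other 3 libraries, of PDCD4-depleted cells, were not used.

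Of 194142 transcripts listed, 181244 have an identifier held by GENCODE release 44 on GRCh38, and TPM and counts were summed over 34486 genes, 19692 of them protein-coding. The 12898 unmatched transcripts were left out. Salmon shares reads out among similar transcripts, so that levels of near-identical genes are uncertain, and libraries were of total RNA, so that unspliced RNA may enter. A gene was called expressed at 1 TPM or more in all 3 libraries. No groups were compared and no test was run. A pseudocount of 0.01 TPM entered the ratio of CDH1 to CDH2 only. For genes without a read, the TPM of 3 reads in 1 library on a protein-coding transcript of median length was given as a limit. Limits cover counting error only, and depth was 13410441 to 21828931 estimated counts.

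The gene lists and the genes to be named were chosen with earlier results of these data known. Named were the 5 markers, the 25 highest genes, up to 6 highest members of each of 62 lists (in lineage lists also up to 4 of the lowest), PDCD4 and the 8 genes of highest CV, and genes beyond this rule were chosen after their values were seen. Of 1075 listed genes 1064 were measured, and 11 were not analysed here. The values of some named or listed genes are not reported here, although they enter the counts and sums of their lists. Promoters are RefSeq's, and transcript identity came from global alignment in Biopython 1.88. TMM factors came from edgeR 4.0.16 in R 4.3.3 on rounded counts. The calculation of the CV was checked on simulated data. Python 3.11.15, pandas 2.3.3 and matplotlib 3.10.9 were used. Alternatives were other scalings, protein-coding transcripts alone, other thresholds and leaving out each library.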

Additional observations from a re-analysis of the deposited data

Results flagged for a closer look

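Processed pseudogenes lie outside the levels described and are given because they carry a large signal, on average 38.5% of the TPM. Their share of the counts was 7.12%, 11.4% and 17.5% in replicates 1, 2 and 3, and a short transcript of 177 bases held most of their TPM but only 1.21% to 1.4% of all counts, so that most of their counts lay on other pseudogenes. What RNA gave these reads was not tested. Transcripts without a match in the annotation held on average 4.65% of the TPM, a signal that the gene sums leave out.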

How the results depend on the processing

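The number of expressed protein-coding genes ran from 9825 at 2 TPM to 11347 at 1 TPM in any library, and was within 1.5 times of 10641 under every alternative tried. Rescaling over nuclear protein-coding genes raised keratin TPM to 11899.9, and with TMM-scaled TPM it was 6515. The ratios and the share of the 100 highest genes are taken within each library. Such scaling cannot change them, apart from the pseudocount in CDH1 over CDH2, so that it is no check of them. With the larger pseudocount of 0.1 TPM that log2 ratio was 1.60. With protein-coding transcripts only, keratin TPM was 5742 and the type I over type II keratin log2 ratio -2.25. The log2 ratio of KRT5 plus KRT14 to KRT8 plus KRT18 was then 1.65, and that of the glycolysis to the TCA cycle sum 2.65. The mitochondrial over nuclear respiratory chain log2 ratio was 2.89 and the E-cadherin over N-cadherin log2 ratio 1.30. The share of TPM in the 100 highest genes was 39.9%. No ratio changed its sign with protein-coding transcripts only. With sums of the lists in place of medians, an alternative added after seeing the data, the mitochondrial over nuclear respiratory chain log2 ratio reversed to -0.11. Over protein-coding transcripts the number of members at 1 TPM or more fell by over 1.5 times in 2 of 62 lists, the integrin alpha chains (11 to 7) and the list of red cells and muscle (1 to 0). Leaving out 1 replicate at a time gave a median CV of 0.0495 (without replicate 3) to 0.106 (without replicate 1), and the other values moved by less than 1 SD or 1.5 times. No paired analysis was possible because only 1 group was described. Depth limits the lowest genes, and no test was run.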
